A study of Mus musculus with 6 samples.

Results

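ICOS and the checkpoint receptors were described through 10 genes, Icos, Icosl, Cd28, Ctla4, Pdcd1, Cd274, Lag3, Tigit, Havcr2 and Btla, taken by symbol from the 53278 genes of the deposited count table. All 10 were found in it. The cells were type-2 innate lymphoid cells (ILC2s) sorted from the visceral adipose tissue of C57BL/6 mice 8 weeks old, which lack T and B cell lineage markers and make type 2 cytokines. The sort took lineage-negative CD45+ cells with ST2 (gene Il1rl1) and CD117. All mice had received 3 intraperitoneal injections of 1 µg IL-33, and all cells were then cultured with IL-2 (10 ng/mL) and IL-7 (10 ng/mL). The DTA-1 group (3 libraries) also had DTA-1 at 5 µg/mL, an antibody that activates the costimulatory TNF receptor GITR, and the isotype control group (3 libraries) had the control antibody instead (a rat IgG2b where the methods name it). The titles of the control libraries name the isotype, whereas their columns in the deposited table name PBS, and the sources used here do not settle which was given. The labels give 48 hours of culture, whereas the study's text also gives a shorter time. Neither the labels nor the methods say whether the libraries of a group came from separate mice or cultures, so p-values measure the spread between these libraries, which may be technical.

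ICOS, CD28 and CTLA-4 are related receptors. CD28 and CTLA-4 compete for the B7 ligands CD80 and CD86, CD28 activating and CTLA-4 inhibiting the cell, and ICOS binds ICOS ligand (ICOSL, gene Icosl). ILC2s are known to carry both ICOS and ICOSL, and this pair is known to sustain their survival and cytokine production. PD-1 (Pdcd1), with its ligand PD-L1 (Cd274), and LAG-3, TIGIT, TIM-3 (Havcr2) and BTLA restrain activated lymphocytes.

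Cd28 (chromosome 1, 60716800 to 60773359), Ctla4 (chromosome 1, 60887000 to 60915832) and Icos (chromosome 1, 60977927 to 61000320) are neighbours on the plus strand of mouse build GRCm38, within 283.521 kb. Their coding sequences are shown around a run of proline codons, in capitals, because this loop is where CD28 and CTLA-4 are known to touch the B7 ligands and ICOS to touch ICOSL. Each coding sequence held 1 such in-frame run, and each window has 27 bases on the plus strand of GRCm38, at chr1:60993980-60994006 for Icos, chr1:60763272-60763298 for Cd28 and chr1:60912710-60912736 for Ctla4.
Icos: atttttgacCCACCTCCTtttcaagaa
Cd28: ttcatgtacCCTCCGCCTtacctagac
Ctla4: ctcatgtacCCACCGCCAtactttgtg
Over the 45 pairs among the 10 genes, the longest stretch of coding bases shared exactly was 12, so the members are not near-identical copies of each other. Of the remaining members, Pdcd1 lies on chromosome 1 (94038305 to 94052553, minus strand), Icosl on chromosome 10 (78069302 to 78083913), Havcr2 on chromosome 11 (46454935 to 46481255) and Cd274 on chromosome 19 (29367455 to 29388095). Lag3 lies on chromosome 6 (124904361 to 124911705, minus strand), and Tigit (43648861 to 43664184, minus strand) and Btla (45224315 to 45252895) on chromosome 16. No exon of a member overlapped an exon of another gene of the table in GENCODE M21.

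The libraries held 30569351 to 35131329 counts, and values are given as normalized counts, that is CPM after TMM scaling between libraries. Where a library had 0 counts, up to 3 remain possible, or 0.0848 to 0.0970 normalized counts, by counting error alone. The library labelled DTA-1 replicate 1 lay nearer to isotype control than to its own group. Its chi-square distance per degree of freedom (near 1 for counting noise alone) was 9.64 to 11.3 to the isotype control libraries and 27.1 to 28.2 to DTA-1 replicates 2 and 3, and isotype control libraries lay 11.4 to 17.0 from each other. It was kept under its label, and results are given both over all 6 libraries and over the other 5, without it. The ILC2 genes Gata3 (1525 to 1716 normalized counts) and Il1rl1 (1022 to 1286) were high in every library. Of 12 ILC2 marker genes 5 had a higher and 7 a lower mean with DTA-1 (median log2 fold change −0.03). Il5, Areg, Il2ra and Il13 were higher at an unadjusted p under 0.05 by edgeR, 4 of 12 against 7.22% of all genes tested. Over the other 5 libraries Il5 (log2 fold change 0.80) and Areg (0.75) passed 1.5-fold and an adjusted p below 0.05 by edgeR. Such a rise was found for 0.583% of all genes tested. The summed level of the 12, led by Il5, was 11926 to 12939 normalized counts with isotype control and 13050 to 17262 with DTA-1. Of genes that mark T cells, Cd8a was at 0 in all libraries, Cd4 had at most 0.972 and Cd3e 2.34 to 3.72 normalized counts, while Cd3g had 36.2 to 48.6 and the receptor constant region genes Trbc1 and Trbc2 had 36.6 to 42.5 and 139 to 196. Ms4a1 of B cells, Ncr1 and Klrb1c of natural killer cells and C1qb of macrophages were at 0 in all libraries, but Cd79b (16.4 to 17.8) and Ighm (at least 9.12) of the B cell list and Cd68 (3.96 to 10.6) of the macrophage list were found in every library. The 5 fibroblast marker genes summed to 1.80 to 7.62 normalized counts with isotype control and to 0.288 to 3.98 with DTA-1. All 3 of them that were tested had a lower mean with DTA-1. Over the other 5 libraries 1 was called lower by edgeR, against 0.161% of all genes tested. Their part in the values of the members was not tested.

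Pdcd1 and Icos were by far the most abundant of the 10 transcripts. Levels were compared between genes as normalized counts per kilobase of exon. In isotype control the level of Pdcd1 was 83.3 ± 2.31 per kilobase and that of Icos 47.2 ± 2.76 (SD, n = 3 each). Over all 6 libraries, Pdcd1 lay at or above 95.1% of the 14098 tested genes with a known length and Icos at or above 89.2%. Icosl (6.74 ± 0.340 per kilobase) came next, above Havcr2 (3.75 ± 0.226) and Cd274 (3.63 ± 0.153), whose libraries overlapped each other. Tigit followed at 1.22 ± 0.166 per kilobase. Btla (0.446 ± 0.0908), Ctla4 (0.357 ± 0.0798) and Cd28 (0.309 ± 0.0811) followed, each overlapping its neighbour among these genes, and Lag3 was lowest (0.0313 ± 0.0431). In each isotype control library the level of Icos per kilobase was 114 to 212 times that of Cd28, the related receptor best known for costimulation of T cells.

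**Figure D1:**
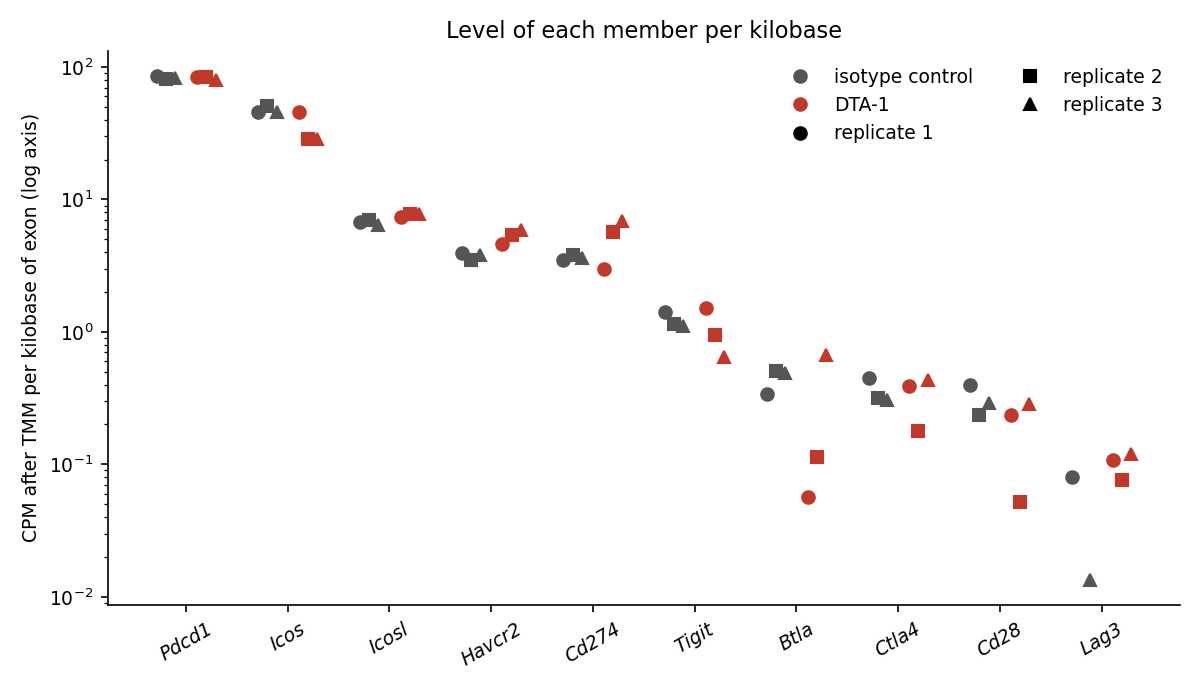
Levels of the 10 members as normalized counts per kilobase of exon on a log axis, 1 point a library, isotype control in grey and DTA-1 in red, with the replicate number as the shape. Pdcd1 and Icos lie above all the others, and the library of Lag3 with 0 counts (isotype control replicate 2) cannot be drawn.

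With all 6 libraries no member was differentially expressed, meaning at least 1.5-fold different at an adjusted p below 0.05 in edgeR's quasi-likelihood test. Of the 10 members 9 passed the filter on low counts, and 0 of these were called, against 0 (0.0%) of the 14361 genes tested. The study itself reported differentially expressed genes at these same limits, from Partek software and a model it does not name, so its result differs from this 0. DESeq2's Wald test called 0 of 10 members (0.099% of all genes) and the fit with the replicate number as a block 0 of 9 (0.00696%). An unadjusted p under 0.05 together with 1.5-fold was reached by 0 of 9 members and by 2.35% of all genes tested. Without a limit on the fold it was reached by Icos and Havcr2, 2 of 9, and by 7.22% of all genes tested. Over the other 5 libraries, 2 of 9 members were differentially expressed, Icos lower and Cd274 higher, against 0.744% of 14911 genes tested (0.161% lower and 0.583% higher). That comparison rests on 3 isotype control and 2 DTA-1 libraries. The library left out was singled out by its expression in these same data, so every p over the other 5 libraries is conditional on that choice, with which the count of all genes called went from 0 to 111.

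**Figure D2:**
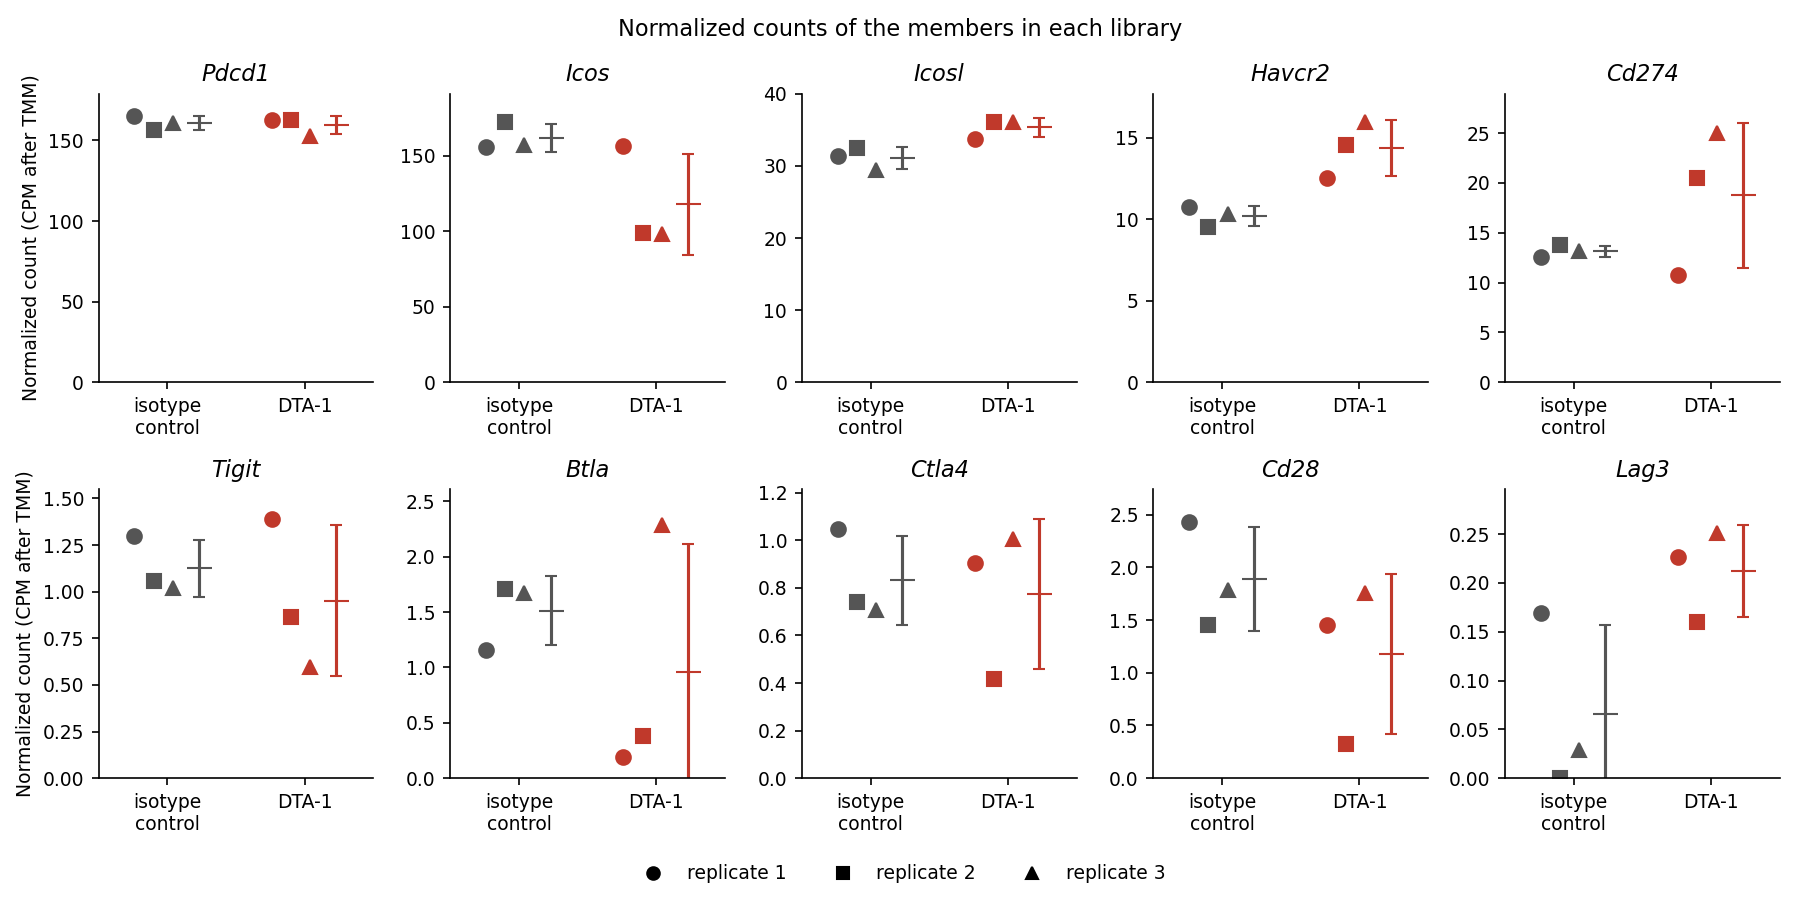
Normalized counts of the 10 members in each library on linear axes that start at 0, with the replicate number as the shape; bars at the right of each group give the mean and SD (n = 3), cut at 0 where the SD exceeds the mean. In the Icos panel DTA-1 replicates 2 and 3 lie at 99.0 and 98.4, below the 4 other libraries, and in the Pdcd1 panel all 6 libraries lie between 153 and 165.

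Icos, the receptor gene, stood at 156, 173 and 157 normalized counts with isotype control (replicates 1, 2 and 3, the order used throughout) and at 157, 99.0 and 98.4 with DTA-1. DTA-1 replicates 2 and 3 were low and lay close to each other, whereas the library labelled DTA-1 replicate 1 lay within the isotype control range, so the groups overlapped. The log2 fold change of Icos was −0.46 (SE 0.15, 95% confidence interval −0.79 to −0.12, adjusted p = 0.627 by edgeR). Over the other 5 libraries it was −0.71 (SE 0.07, 95% confidence interval −0.88 to −0.55), 1.64-fold lower with DTA-1, and passed the test (adjusted p = 0.00129 by edgeR, ranging from 0.00129 to 0.999 over the alternatives). By p, Icos then ranked 29 of the 14911 genes tested. With DTA-1 replicate 2 or 3 left out instead, the log2 fold change of Icos was −0.34 in each case. T cells also express Icos, and the summed level of 10 T cell marker genes, led by Trbc2, was 254 to 295 normalized counts with isotype control and 226 to 284 with DTA-1. Of the 8 tested, 7 had a lower mean with DTA-1 (median log2 fold change −0.07, and −0.18 over the other 5 libraries). For 2 of them, Foxp3 included, every DTA-1 library lay below every isotype control library, as for 866 of all 14361 genes tested. Foxp3 had a log2 fold change of −0.56 (adjusted p = 0.744 by edgeR). The part of the T cell markers in the values of Icos was not tested. In such bulk samples, fewer cells of a type and less RNA per cell cannot be told apart.

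Icosl, the gene of its ligand, did not follow Icos. It stood at 31.4, 32.6 and 29.5 normalized counts with isotype control and at 33.8, 36.2 and 36.1 with DTA-1, and every DTA-1 library lay above every isotype control library. Groups that did not overlap in this direction were found for 2 of 9 members, Icosl and Havcr2, and for 5.26% of all genes tested. The difference in the mean of Icosl was small, with a log2 fold change of 0.18 (SE 0.10, 95% confidence interval −0.03 to 0.40, adjusted p = 0.732 by edgeR), and Icosl did not pass the test over the other 5 libraries either (log2 fold change 0.22, adjusted p = 0.386 by edgeR). Per kilobase, the ratio of Icos to Icosl was 6.69, 7.15 and 7.18 with isotype control but 6.24, 3.69 and 3.67 with DTA-1. It was lower in all 3 DTA-1 libraries than in any isotype control library, and lowest in replicates 2 and 3. The other ratios computed, Icos to Pdcd1, Cd274 to Pdcd1 and Icos to Cd28, overlapped between the groups. How often ratios of other gene pairs separate the groups was not computed.

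Cd28 and Ctla4, next to Icos on chromosome 1, were near the lower limit of what could be tested. Cd28 was counted 86, 51 and 63 times with isotype control and 45, 10 and 56 times with DTA-1, and DTA-1 replicate 2 held the fewest. The log2 fold change of Cd28 was −0.68 (SE 0.53, adjusted p = 0.817 by edgeR), and it ranged from −1.09 to −0.23 when 1 library was left out, the ends being without DTA-1 replicate 3 and without DTA-1 replicate 2. Ctla4 was counted 37, 26 and 25 times with isotype control and 28, 13 and 32 times with DTA-1. The groups overlapped, and the log2 fold change of Ctla4 was −0.10 with a 95% confidence interval of −1.21 to 1.01 (adjusted p = 0.977 by edgeR), an interval that does not exclude a change of 1.5-fold in either direction.

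Pdcd1, the gene of the receptor PD-1, was level across the groups. It stood at 165, 156 and 161 normalized counts with isotype control and at 163, 163 and 153 with DTA-1. The groups overlapped, and the log2 fold change of Pdcd1 was −0.01 (SE 0.06, adjusted p = 0.981 by edgeR). Its 95% confidence interval, −0.15 to 0.13, corresponds to 0.902-fold to 1.09-fold and leaves out a change of 1.5-fold in either direction. Over the other 5 libraries the interval was −0.17 to 0.12.

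Cd274, the gene of the PD-1 ligand PD-L1, differed between the DTA-1 libraries. It stood at 12.6, 13.7 and 13.2 normalized counts with isotype control and at 10.7, 20.5 and 25.0 with DTA-1. DTA-1 replicates 2 and 3 were above every isotype control library and the library labelled DTA-1 replicate 1 was below them all. With all libraries the log2 fold change of Cd274 was 0.51 (SE 0.25, 95% confidence interval −0.03 to 1.06, adjusted p = 0.702 by edgeR). Over the other 5 libraries it was 0.79 (SE 0.14), 1.73-fold higher with DTA-1, and passed the test (adjusted p = 0.0259 by edgeR, ranging from 0.0259 to 0.999 over the alternatives), whereas leaving out DTA-1 replicate 3 gave 0.25. The gene of the other PD-1 ligand, Pdcd1lg2, starts 22.823 kb after Cd274 and stood at 11.7, 9.29 and 11.1 normalized counts with isotype control and at 11.7, 22.0 and 19.2 with DTA-1. Every DTA-1 library of Pdcd1lg2 lay above isotype control, as for 5.26% of all genes tested, although replicate 1 and isotype control replicate 1 were equal to 3 digits. Its log2 fold change was 0.72 (SE 0.22, adjusted p = 0.627 by edgeR), and 0.95 over the other 5 libraries (adjusted p = 0.0167 by edgeR, the lowest of all fits, which reached 0.999). Dendritic cells and macrophages also carry both ligands, and the sort left out cells with CD11b or CD11c. The summed level of 10 of their marker genes was 7.57 to 13.9 normalized counts in isotype control and 10.3 to 14.8 in DTA-1. Of the 5 that were tested 4 had a higher mean with DTA-1 and 0 were called by edgeR, with a median log2 fold change of 0.89 (0.94 over the other 5 libraries). Among them Zbtb46 was higher in every DTA-1 library than in any isotype control library, at a log2 fold change of 1.01 (adjusted p = 0.698 by edgeR), and Adgre1 was at −0.50 (adjusted p = 0.900 by edgeR). Their part in the values of Cd274 and Pdcd1lg2 was not tested.

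Havcr2, the gene of the inhibitory receptor TIM-3, stood at 10.8, 9.55 and 10.3 normalized counts with isotype control and at 12.6, 14.6 and 16.0 with DTA-1. Every DTA-1 library lay above every isotype control library, the one labelled replicate 1 included. The log2 fold change of Havcr2 was 0.49 (SE 0.15, 95% confidence interval 0.16 to 0.83), short of 1.5-fold, with an unadjusted p of 0.00823 and an adjusted p of 0.627 by edgeR. It was 0.58 over the other 5 libraries (adjusted p = 0.114 by edgeR), and stayed between 0.41 and 0.58 with each library left out in turn. Havcr2 thus did not pass the test in either comparison, although its value depended less on that library than those of Icos and Cd274.

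Tigit, Btla and Lag3, genes of further inhibitory receptors, had few counts. Tigit was counted 46, 37 and 36 times with isotype control and 43, 27 and 19 times with DTA-1, and its log2 fold change of −0.24 (SE 0.45, adjusted p = 0.941 by edgeR) was −0.62 over the other 5 libraries and 0.0029 without DTA-1 replicate 3. Btla was counted 41, 60 and 59 times with isotype control and 6, 12 and 73 times with DTA-1. Here DTA-1 replicates 1 and 2 were low and replicate 3 was the highest of all 6 libraries, which is another split of the DTA-1 group than for Icos. The log2 fold change of Btla was −0.66 (SE 0.72, adjusted p = 0.878 by edgeR). It was −2.37 without DTA-1 replicate 3 (adjusted p = 0.939 by edgeR) and −0.18 over the other 5 libraries. B cells also express Btla, and of their marker genes Ms4a1 was at 0 while Cd79b and Ighm were present at the levels given above. The sum of the 5 B cell marker genes was 25.9 to 28.7 normalized counts with isotype control and 27.8 to 28.3 with DTA-1, and its part in the values of Btla was not tested. Lag3 was counted 6, 0 and 1 times with isotype control and 7, 5 and 8 times with DTA-1 and was removed by the filter, and no fold change is given.

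**Figure D3:**
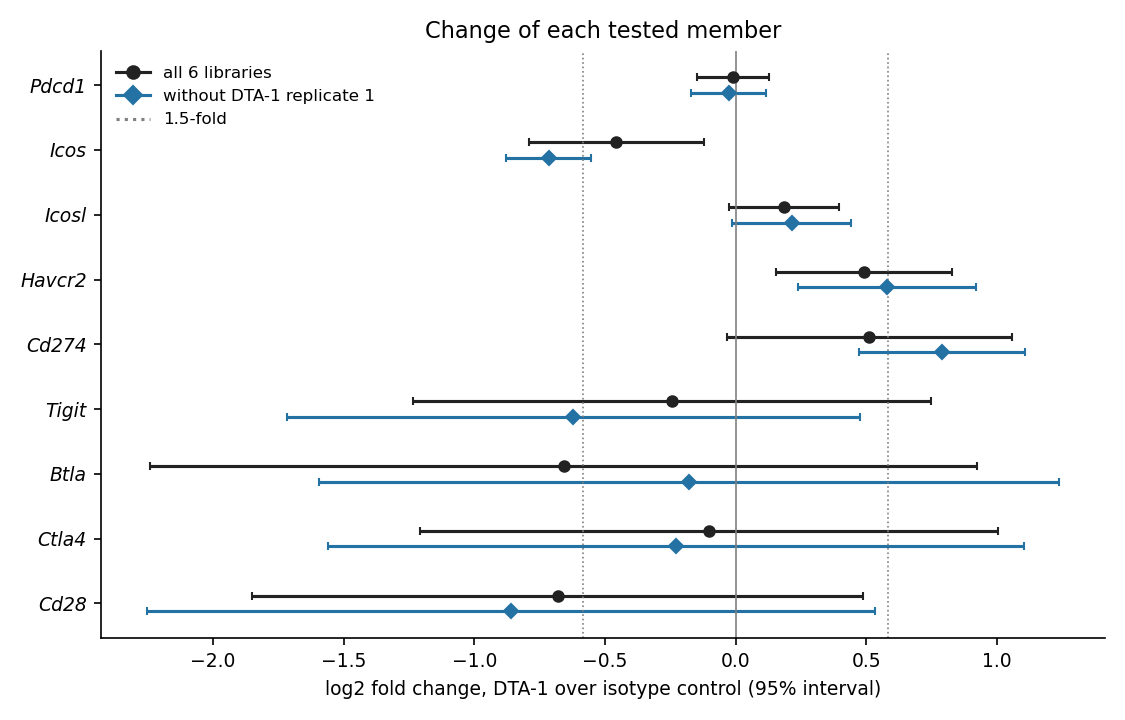
Log2 fold change of the 9 tested members, DTA-1 over isotype control, with 95% confidence intervals from edgeR, for all 6 libraries (black circles) and without DTA-1 replicate 1 (blue diamonds); dotted lines mark 1.5-fold. Icos moves from −0.46 to −0.71 and Cd274 from 0.51 to 0.79 when that library is left out, while Pdcd1 stays next to 0 with the narrowest interval.

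Promoter windows from RefSeq (GRCm38.p6, 250 bases before to 50 bases after the RefSeq start) were found for 7 of the 10 members, and not for Icos, Cd28 and Lag3. The RefSeq start need not be the gene start given above. For Ctla4 the window (chr1:60908775-60909074) lies well inside the span given above, which starts at 60887000. The windows of Icosl, Havcr2 and Cd274 are shown, 5′ to 3′ on the strand of the gene, as those of the members with a higher mean in DTA-1. They were searched on both strands for the NF-κB consensus GGGRNNYYCC, because GITR is known to act through NF-κB. The AP-1 pattern TGANTCA and the STAT pattern TTCNNNGAA were also searched for, and matches are in capitals. R stands for A or G, Y for C or T and N for any base. Icosl lies at chr10:78069118-78069417, Havcr2 at chr11:46454681-46454980 and Cd274 at chr19:29367188-29367487, all on the plus strand.
Icosl: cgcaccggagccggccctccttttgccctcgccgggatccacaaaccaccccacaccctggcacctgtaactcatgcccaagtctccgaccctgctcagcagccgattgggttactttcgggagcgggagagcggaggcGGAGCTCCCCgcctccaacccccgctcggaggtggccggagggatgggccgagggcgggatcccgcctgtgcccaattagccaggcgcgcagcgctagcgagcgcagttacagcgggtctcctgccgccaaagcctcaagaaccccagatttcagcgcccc
Havcr2: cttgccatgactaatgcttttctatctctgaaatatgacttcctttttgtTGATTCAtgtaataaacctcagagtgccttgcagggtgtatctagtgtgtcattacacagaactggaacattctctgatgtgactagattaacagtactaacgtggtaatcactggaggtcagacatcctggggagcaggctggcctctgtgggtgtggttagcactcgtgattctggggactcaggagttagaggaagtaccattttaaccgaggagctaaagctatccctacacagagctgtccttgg
Cd274: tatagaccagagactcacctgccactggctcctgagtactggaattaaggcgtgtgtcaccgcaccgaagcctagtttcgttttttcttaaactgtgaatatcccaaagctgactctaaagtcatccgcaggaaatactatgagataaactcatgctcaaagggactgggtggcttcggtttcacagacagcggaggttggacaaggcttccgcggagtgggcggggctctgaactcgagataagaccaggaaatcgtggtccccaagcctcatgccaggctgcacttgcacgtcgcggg
Icosl held the NF-κB consensus on the strand opposite to the one printed, starting at base 140 of its window as printed. Havcr2 held a match to the AP-1 pattern, TGATTCA, starting at base 51. The windows of Ctla4, Pdcd1, Tigit, Btla and Cd274 held none of the 3 motifs, and no window held more than 1 match. Of 32851 promoter windows of the same length, 8.46% held the NF-κB consensus, 7.81% the AP-1 pattern and 8.30% the STAT pattern. A match in letters is a description of the window, not of binding.

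Over 68 further genes in 5 lists, 55 were tested with all libraries, 0 were differentially expressed, and 3 passed an unadjusted p of 0.05 with 1.5-fold by edgeR, Pdcd1lg2 and Lair1 higher and Pecam1 lower, against 2.35% of all genes tested. Over the other 5 libraries 2 of 56 were called, Pdcd1lg2 and Pecam1, against 0.744% of all genes tested. The median log2 fold change of the 55 genes was 0.00, that of the 9 members −0.10 and that of all genes tested −0.01. Among 12 further ligands 7 were tested, 3 with a higher and 4 with a lower mean, and Pdcd1lg2 was the 1 gene called over the other 5 libraries.

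Of 14 further receptors 10 were tested, with 5 means higher and 5 lower. Pecam1, an adhesion receptor with inhibitory motifs, stood at 24.4, 18.4 and 22.2 normalized counts with isotype control and at 18.3, 10.4 and 10.8 with DTA-1. All DTA-1 libraries were below isotype control, as for 866 of the 14361 genes tested, although replicate 1 was next to isotype control replicate 2. The log2 fold change of Pecam1 was −0.72 (SE 0.21, adjusted p = 0.627 by edgeR). It was −1.03 over the other 5 libraries (adjusted p = 0.0132 by edgeR, the lowest of all fits, which reached 0.999), where Pecam1 was the 1 receptor of the list called. Lair1, an inhibitory collagen receptor, was counted 6, 8 and 12 times with isotype control and 36, 26 and 14 times with DTA-1, a log2 fold change of 1.71 (adjusted p = 0.632 by edgeR) from few reads. Klrg1, an inhibitory receptor of mature ILC2s, was level at 572 to 612 and 544 to 600 normalized counts (log2 fold change −0.04, adjusted p = 0.923 by edgeR).

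All 21 genes of signalling below CD28, ICOS and PD-1 were tested, with 11 means higher and 10 lower and a median log2 fold change of 0.00. Lcp2, an adaptor of antigen receptor signalling, had a log2 fold change of 0.17 (adjusted p = 0.655 by edgeR), the smallest p of this list. Of 6 genes that control the turnover of ICOS or CTLA-4, 5 were tested and 4 had a higher mean. Zc3h12a, which encodes Regnase-1, an RNase known to degrade Icos mRNA, stood at 9.75, 9.21 and 9.33 normalized counts with isotype control and at 12.9, 12.5 and 12.8 with DTA-1. Its groups did not overlap (DTA-1 higher, as for 5.26% of all genes tested). Unlike for Icos, the library labelled DTA-1 replicate 1 was with its group. The log2 fold change of Zc3h12a was 0.43 (SE 0.14, adjusted p = 0.627 by edgeR), and Ap2m1, an adaptor subunit in CTLA-4 endocytosis, was at 0.11 (adjusted p = 0.744 by edgeR). Rc3h1, which encodes Roquin-1, known to repress Icos mRNA, was at −0.15 (adjusted p = 0.847 by edgeR). Of 15 transcription factors known for checkpoint receptor genes in T cells, 12 were tested and 0 had an unadjusted p under 0.05. The smallest p values were those of Tox2 (log2 fold change 0.20, adjusted p = 0.702 by edgeR) and Maf (log2 fold change −0.23, adjusted p = 0.717 by edgeR).

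**Figure D4:**
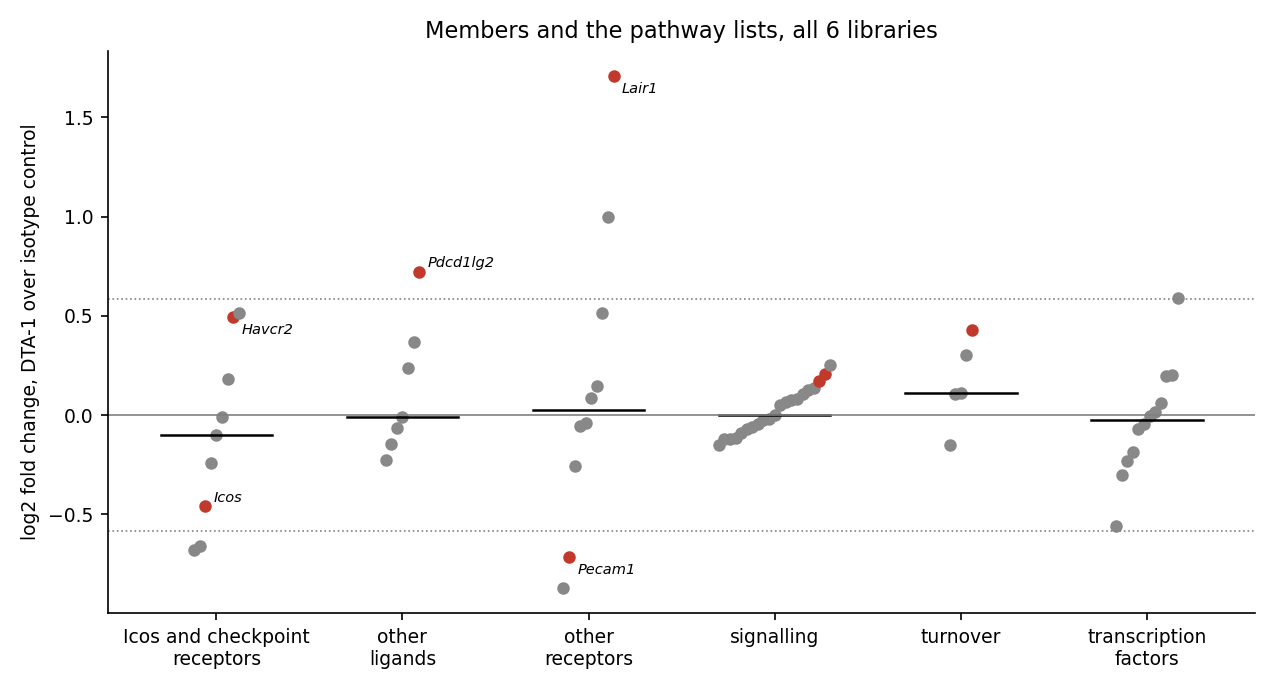
Log2 fold change, DTA-1 over isotype control with all 6 libraries, of the tested members and of the tested genes of the 5 pathway lists, 1 point a gene; red points have an unadjusted p under 0.05, black lines are list medians and dotted lines mark 1.5-fold. The medians lie between −0.10 and 0.11, and the red points are 2 members and 6 genes of the lists, with names at the members and at the 3 list genes past 1.5-fold.

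The genes whose pattern over the 6 libraries was most like that of Icos were found by the root mean square difference of centred log2(normalized count + 1) values among 8718 genes with a mean of at least 10 normalized counts. They were Myo6, Tpbgl and Ly9, with differences of 0.0385, 0.0569 and 0.0763 on the log2 scale. Myo6, the gene of an unconventional myosin, stood at 378, 421 and 399 normalized counts with isotype control and at 381, 259 and 246 with DTA-1. Like Icos, it was low in DTA-1 replicates 2 and 3 alone. Ly9, a receptor gene of the SLAM family, stood at 38.4, 39.6 and 37.4 normalized counts with isotype control and at 39.0, 24.3 and 20.8 with DTA-1. Btla had the widest range of the tested members, 1.46 on this log2(normalized count + 1) scale, which narrows the differences of genes with low counts such as Btla, and the genes nearest to it, Epg5, Plcb2 and Rpl10-ps3, were at differences of 0.303, 0.321 and 0.325.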

How the data were processed

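RNA of sorted ILC2s was sequenced, with 10 ng of input RNA a library. The authors aligned and analysed the reads with Partek software. Their processing notes also name STAR 2.5.3a, bcl2fastq 2.17.1.14 and mm10. The deposited values are expected counts, estimated reads per gene without normalization. The annotation release and strand setting are not given in the sources used here. Counts were rounded, filtered with filterByExpr and scaled by TMM in edgeR 4.0.16 (R 4.3.3), which left 14361 genes, and the groups were compared by a robust quasi-likelihood F test with Benjamini-Hochberg adjustment over all genes. Alternatives used limma 3.58.1 and DESeq2 1.42.0, other scalings and filters, the replicate number as a block and each library left out. Gene starts matched GENCODE M21 for 48190 of 49618 shared symbols, and ends are the stop of the table less 1 base. Exon lengths are unions from GENCODE M21. The scripts were tested on simulated data. The text names all members, list genes with an unadjusted p under 0.05 and 1.5-fold or else those with the smallest p, and the genes most like Icos and the most variable member. Klrg1 and Rc3h1 were added after their values were seen. Members and lists were chosen with earlier results of these data known. Some genes of the lists are counted but not reported here by name. No read-level data were used.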

Additional observations from a re-analysis of the deposited data

How the results depend on the processing

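The count of differentially expressed genes, 0 with all libraries by edgeR, was 25 by DESeq2's Wald test and 2 without the filter on low counts. It ranged from 0 to 111 with 1 library left out, and the count of members called from 0 to 2, both highest without DTA-1 replicate 1. At an unadjusted p under 0.05 and 1.5-fold the count of members ranged from 0 to 2 and that of the pathway genes from 1 to 3. Of 116 fold changes of members under the alternatives, 109 kept their direction and side of the threshold, and 2 (Icos and Cd274 without DTA-1 replicate 1) passed it. The other 5 changed sign. Ctla4 ranged from −0.33 to 0.20 with 1 library left out (above 0 without DTA-1 replicate 2 or isotype control replicate 1), Pdcd1 from −0.031 to 0.018 (above 0 without DTA-1 replicate 3 or isotype control replicate 1) and Tigit from −0.62 to 0.0029 (above 0 without DTA-1 replicate 3). The cause was not tested. With the replicate number as a block 1 gene and 0 members were called, and the log2 fold change was −0.49 for Icos and −1.30 for Btla. Libraries with the same number did not deviate together (r across genes −0.00690, −0.00285 and 0.0152). These values weigh all tested genes alike, those with few counts included, so they cannot exclude that the numbers pair the libraries. Scaling to TPM left the order of the levels as it was. Counts of Ctla4, Cd28, Tigit, Btla and Lag3 limit what could be detected for them.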
